A study of Mus musculus with 21 samples.

Results

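Collagen genes were defined by symbol, as every gene written Col, digits, a, digits. Of the 25239 genes in the deposited tables, 44 met this rule. They were measured by bulk RNA sequencing of messenger RNA from choroid plexus and hypothalamus of mice labelled WT on a C57BL/6J background. The groups were choroid plexus with Ins2 overexpression (6 libraries), control choroid plexus (5 libraries), hypothalamus of mice with Ins2 overexpression in the choroid plexus (5 libraries) and control hypothalamus (5 libraries), 21 in all. Ins2 is a mouse insulin gene. By their labels the controls had no treatment, but the column names of the hypothalamus controls carry a GFP prefix, so whether a GFP vector was given is unclear. Age, the route by which Ins2 was delivered and whether each library came from its own animal are not stated in the sources used here. P-values therefore measure the spread between these libraries, which may in part be technical.

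Collagens are secreted or membrane-bound proteins of 3 chains wound into a triple helix. Fibrillar collagens form the tensile fibres of connective tissue, fibril-associated collagens sit on their surface, type IV collagen forms the sheet of basement membranes, type VIII and X chains form hexagonal lattices, type VI chains form beaded filaments, and a few members span the cell membrane. Which chains a cell makes decides which trimers it can assemble. The choroid plexus is a folded epithelium on a stroma with fenestrated capillaries, and it secretes cerebrospinal fluid. The hypothalamus is brain parenchyma, where fibrous matrix is sparse and basement membranes lie mainly around vessels. By class, the 44 genes were 11 fibrillar, 9 fibril-associated, 6 type IV, 6 type VI, 4 membrane-spanning, 3 short-chain network (types VIII and X), 2 multiplexin (types XV and XVIII), 1 anchoring fibril (type VII) and 2 other (Col26a1 and Col28a1).

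The sequences just upstream of the annotated first exons are shown for the pair of type VIII genes, which stood furthest above hypothalamus, and for the type IV genes that lie head to head. They are from RefSeq, build GRCm38.p6, written 5′ to 3′ on the strand of the gene named, and capitals mark GGGCGG on either strand. The Col8a1 stretch is chr16:57754738-57754987 on the minus strand, and the Col8a2 stretch is chr4:126286544-126286792 on the plus strand.
Col8a1: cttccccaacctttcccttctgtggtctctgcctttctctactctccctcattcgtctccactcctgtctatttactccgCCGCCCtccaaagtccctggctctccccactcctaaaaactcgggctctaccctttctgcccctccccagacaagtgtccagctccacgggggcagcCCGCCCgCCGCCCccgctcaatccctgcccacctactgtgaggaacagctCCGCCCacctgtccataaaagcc
Col8a2: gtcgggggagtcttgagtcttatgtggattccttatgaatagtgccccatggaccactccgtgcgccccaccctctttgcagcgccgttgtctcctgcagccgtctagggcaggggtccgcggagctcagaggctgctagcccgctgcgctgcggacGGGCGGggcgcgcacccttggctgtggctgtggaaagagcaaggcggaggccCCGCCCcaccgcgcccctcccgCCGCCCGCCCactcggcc
Each of these stretches held GGGCGG 4 times, counting overlaps, and the genes lie on different chromosomes.

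The 6 type IV genes form 3 head-to-head pairs. Col4a4 (minus strand) and Col4a3 (plus strand) on chromosome 1 are 71 bases apart, and the whole gap, chr1:82586850-82586920, is printed on the Col4a4 strand. Col4a6 and Col4a5 on the X chromosome are 1308 bases apart, and the outer stretches of that gap are printed, chrX:141474077-141474326 on the minus strand for Col4a6 and chrX:141475169-141475384 on the plus strand for Col4a5. Annotated starts of Col4a1 and Col4a2 on chromosome 8 overlap by 22 bases, which leaves no gap to print.
Col4a4-Col4a3: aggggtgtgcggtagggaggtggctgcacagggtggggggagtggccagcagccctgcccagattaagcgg
Col4a6: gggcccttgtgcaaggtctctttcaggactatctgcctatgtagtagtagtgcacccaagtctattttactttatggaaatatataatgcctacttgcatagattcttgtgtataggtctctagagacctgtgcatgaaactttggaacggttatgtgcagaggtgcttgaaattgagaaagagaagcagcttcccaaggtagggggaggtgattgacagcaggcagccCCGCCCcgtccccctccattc
Col4a5: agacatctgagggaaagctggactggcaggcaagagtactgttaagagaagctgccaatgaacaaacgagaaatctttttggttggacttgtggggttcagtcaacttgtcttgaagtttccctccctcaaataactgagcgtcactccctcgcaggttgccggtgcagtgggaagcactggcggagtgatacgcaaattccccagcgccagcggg
The gap between Col4a4 and Col4a3 held no GGGCGG on either strand, nor any of the other motifs counted here. GGGCGG, the core of the GC box, occurred in the 250 bases before the start in 57.9% of 38 entries for the 35 collagens in the RefSeq promoter table, against 32.7% of all 32851 promoters. CCAAT occurred in 34.2% of the collagen entries and 33.8% of all promoters, TATAAA in 13.2% and 12.4%, and TAATCC, a core bound by homeodomain proteins, in 0% and 6.25%. These letter matches are descriptions and were not tested.

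Libraries held 25.95 to 36.3 M reads (M stands for 1000000) in choroid plexus and 27.4 to 62.1 M in hypothalamus, so a count of 0 allows up to 0.0827 to 0.116 and 0.0483 to 0.110 reads per M. These limits and the counting intervals given for pooled reads cover counting error only. Ins2 averaged 826 ± 162 size-factor-scaled reads in Ins2 choroid plexus and 430 ± 50.7 in control choroid plexus (SD, n = 6 and 5), with limma adjusted p = 0.00594, and hypothalamus libraries held 0 to 5 reads of it. Summed plexus epithelium markers were 118092 to 140348 reads per M in Ins2 and 119251 to 131398 in control choroid plexus, against 60.9 to 74.8 in hypothalamus, so the tissue labels fit their markers. Control choroid plexus library 2 stood apart, with 1684 oligodendrocyte marker reads per M where the other choroid plexus libraries had at most 178, and 325 astrocyte marker reads per M where the others had at most 164. Neuron markers were 6.42 to 16.3 reads per M in choroid plexus, with Rbfox3 and Nefl below the level tested, and the fibroblast marker Dpt was also below it. In bulk tissue, fewer cells of a type and less RNA per cell cannot be told apart.

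The choroid plexus spent more of its reads on collagens than the hypothalamus, and on a different set. In control choroid plexus 0.363% ± 0.0238 of reads were collagen reads (SD, n = 5), and in control hypothalamus 0.0892% ± 0.00458 (n = 5). Levels across the tissues are set side by side as reads per M of reads recovered from the deposited values, and per kb of exon where genes are compared with each other. The tissues were scaled in separate tables, so no test was made between them. Of the 44 collagens, 14 were higher in every control choroid plexus library than in any control hypothalamus library, 25 were lower in every one, and 5 overlapped. Among all 16906 genes with a mean of at least 10 in either tissue, 24.1% were higher and 53.5% lower without overlap, so the collagen shares of 31.8% and 56.8% lay near those of all genes.

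The scale moves these values as a whole. The median log2 ratio of choroid plexus to hypothalamus was -0.64 over all genes in reads per M and -0.15 after TMM scaling over both tissues, and that of the collagens was -2.21 and -1.72. Each of the 39 separated collagens kept its direction under TMM, without the 20 most abundant genes and without each control library in turn. Col5a2 joined the higher ones under TMM, without those 20 genes and without hypothalamus control 2, and Col20a1 joined the lower ones without hypothalamus control 4. The overlapping 5 were Col1a1, Col3a1, Col5a2, Col10a1 and Col20a1.

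**Figure D1:**
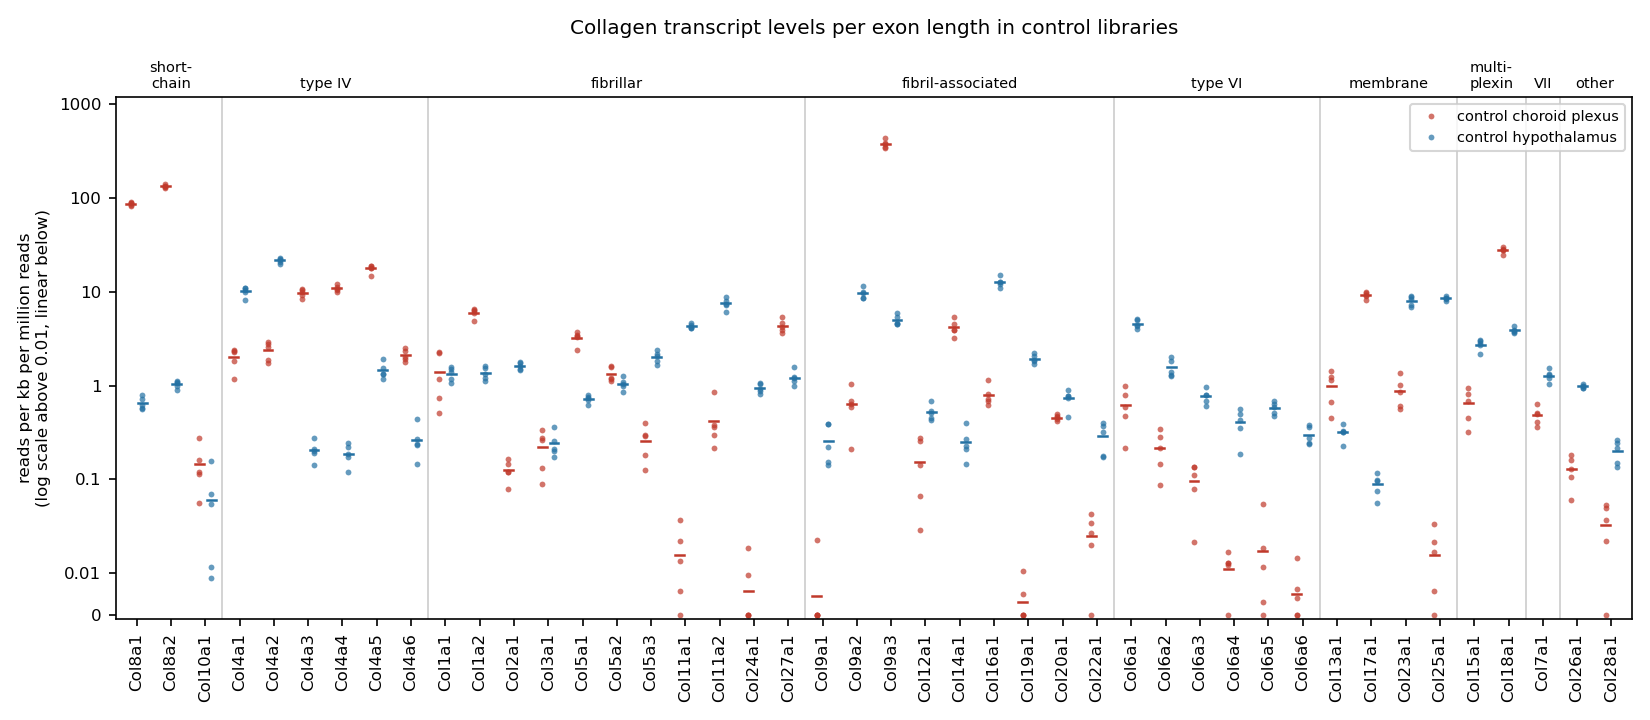
Level of each of the 44 collagens in reads per kb of exon per M reads (log scale above 0.01, linear below) in control choroid plexus (red) and control hypothalamus (blue), grouped by class. Points are libraries (5 for each tissue) and bars are means; Col9a3, Col8a2 and Col8a1 lie above 80 in choroid plexus, where no hypothalamus collagen exceeds 23.1.

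Per length, 3 genes made up most of the collagen message of the control choroid plexus. Col9a3, which encodes a chain of the cartilage fibril-associated type IX collagen, had 377, 348, 385, 441 and 344 reads per kb per M, against 5.41, 4.70, 5.93, 4.52 and 4.56 in control hypothalamus. Col8a2, a chain of the type VIII lattice known from the Descemet membrane of the cornea, had 131, 127, 136, 140 and 136 in choroid plexus, against 1.09, 0.902, 0.993, 1.06 and 1.12 in hypothalamus. Its partner chain Col8a1 had 83.5, 88.5, 90.6, 89.0 and 82.6 in choroid plexus, against 0.573, 0.790, 0.619, 0.725 and 0.560 in hypothalamus. The groups did not overlap for any of the 3 genes. Col9a3 alone was 53.4% of the summed collagen level per length in control choroid plexus, Col8a2 18.9% and Col8a1 12.2%. In that order each gene, and then Col18a1, lay above the next without overlap of the libraries, down to Col4a5. Col9a3 (chromosome 2, 180597790 to 180622189) shares 6.07% of its exon bases with the opposite-strand gene Tcfl5, which had a mean of 48.3 size-factor-scaled reads over the choroid plexus libraries.

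Per length, the next genes in the choroid plexus belong to basement membranes and to epithelial anchoring. Col18a1, a basement membrane proteoglycan whose end fragment is endostatin, had 28.0 ± 1.96 reads per kb per M in control choroid plexus and 3.89 ± 0.240 in control hypothalamus (SD, n = 5 each). Col4a5 had 17.8 ± 1.76 in choroid plexus, and Col4a4 and Col4a3 had 10.9 ± 0.831 and 9.79 ± 0.937. These are the chains of the type IV network of the kidney glomerulus, altered in human Alport syndrome. Col17a1, the membrane-spanning collagen of hemidesmosomes, had 9.23 ± 0.722 in choroid plexus and 0.0883 ± 0.0231 in hypothalamus. Col4a4 overlapped Col4a3, and Col4a3 overlapped Col17a1. This order depends on the exon lengths used. Without division by length the fibrillar Col1a2 and Col27a1 had means of 74.7 and 56.9 reads per M in control choroid plexus. Col17a1 had 55.5, and its range overlapped those of both.

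Hypothalamus had no single dominant collagen. Col4a2, one of the ubiquitous pair of type IV chains, had 22.5, 20.7, 23.1, 19.99 and 22.0 reads per kb per M in control hypothalamus, against 2.89, 1.90, 2.798, 2.56 and 1.72 in control choroid plexus. Its partner Col4a1 had 10.1 ± 1.10 in hypothalamus and 2.01 ± 0.516 in choroid plexus. The other leading genes of the hypothalamus were Col16a1 (12.7 ± 1.61), a fibril-associated collagen, Col9a2 (9.70 ± 1.23), a second type IX chain, Col25a1 (8.51 ± 0.333) and Col23a1 (8.04 ± 0.929), which span the cell membrane, Col11a2 (7.51 ± 0.978), a minor fibrillar chain of cartilage, and Col9a3 (5.03 ± 0.620). Col4a2 lay above all of these without overlap, and from Col16a1 to Col11a2 each gene overlapped the next.

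The extremes of the ratio between tissues followed the same split. Col8a1 had 680 reads per M in control choroid plexus and 5.12 in control hypothalamus, a ratio of 133. The ratio was 129 for Col8a2, 105 for Col17a1, 75.4 for Col9a3, 57.9 for Col4a4 and 48.0 for Col4a3. At the other end, Col19a1, a collagen made by interneurons in mouse hippocampus, had 3 reads over the 5 control choroid plexus libraries and 2277 over the 5 control hypothalamus libraries. Pooled and scaled to depth, hypothalamus had 668 times the choroid plexus level (95% counting interval 228 to 3243). Col25a1, found in amyloid plaques of human brain, had 31 and 18708 reads, and hypothalamus had 531 times the level (374 to 782). Col11a1, a fibrillar chain, had 29 and 9353 reads, and hypothalamus had 284 times the level (198 to 424). Control choroid plexus library 2, the one high in oligodendrocyte markers, held 15 of the 31 Col25a1 reads, 6 of the 29 Col11a1 reads and none of the Col19a1 reads.

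By class, 54.2% ± 1.70 of the summed level per length was fibril-associated in control choroid plexus and 25.4% ± 1.37 in control hypothalamus (SD, n = 5 each). Short-chain network collagens were 31.2% ± 1.504 in choroid plexus and 1.42% ± 0.157 in hypothalamus. Type IV chains were 6.33% ± 0.290 and 27.4% ± 0.714, fibrillar chains 2.45% ± 0.277 and 18.1% ± 0.299, membrane-spanning chains 1.57% ± 0.0545 and 13.8% ± 1.12, and multiplexins 4.04% ± 0.219 and 5.37% ± 0.415, in choroid plexus and hypothalamus in turn. These are shares of unlike totals, so a lower share need not be a lower level. In reads per M and the same order of tissues, type IV chains had 380 ± 28.9 and 235 ± 14.4. Multiplexins had 201 ± 14.8 and 44.7 ± 3.42, and membrane-spanning chains 65.3 ± 3.44 and 158 ± 3.97. Fibrillar chains had 189 ± 22.3 and 202 ± 11.4, and their ranges overlapped. Among fibrillar collagens, Col5a1, Col1a2 and Col27a1 were higher in choroid plexus without overlap, with ratios of 4.51, 4.44 and 3.59, and Col2a1, Col5a3, Col11a1, Col11a2 and Col24a1 were lower. Among fibril-associated collagens Col9a3 and Col14a1 were higher, the second with a ratio of 16.7, and Col9a1, Col9a2, Col12a1, Col16a1, Col19a1 and Col22a1 were lower. The membrane-spanning Col13a1 and Col17a1 were higher, and Col23a1 and Col25a1 were lower, and of the multiplexins Col18a1 was higher, with a ratio of 7.19, and Col15a1 lower. All 6 type VI genes were lower in choroid plexus, where the class was 0.134% ± 0.0586, against 6.62% ± 0.508 in hypothalamus. Col7a1, the anchoring fibril collagen, and the 2 other genes, Col26a1 and Col28a1, were also lower in choroid plexus without overlap. Type IV divided within the class: Col4a3, Col4a4, Col4a5 and Col4a6 were higher in choroid plexus, and Col4a1 and Col4a2 were lower.

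**Figure D2:**
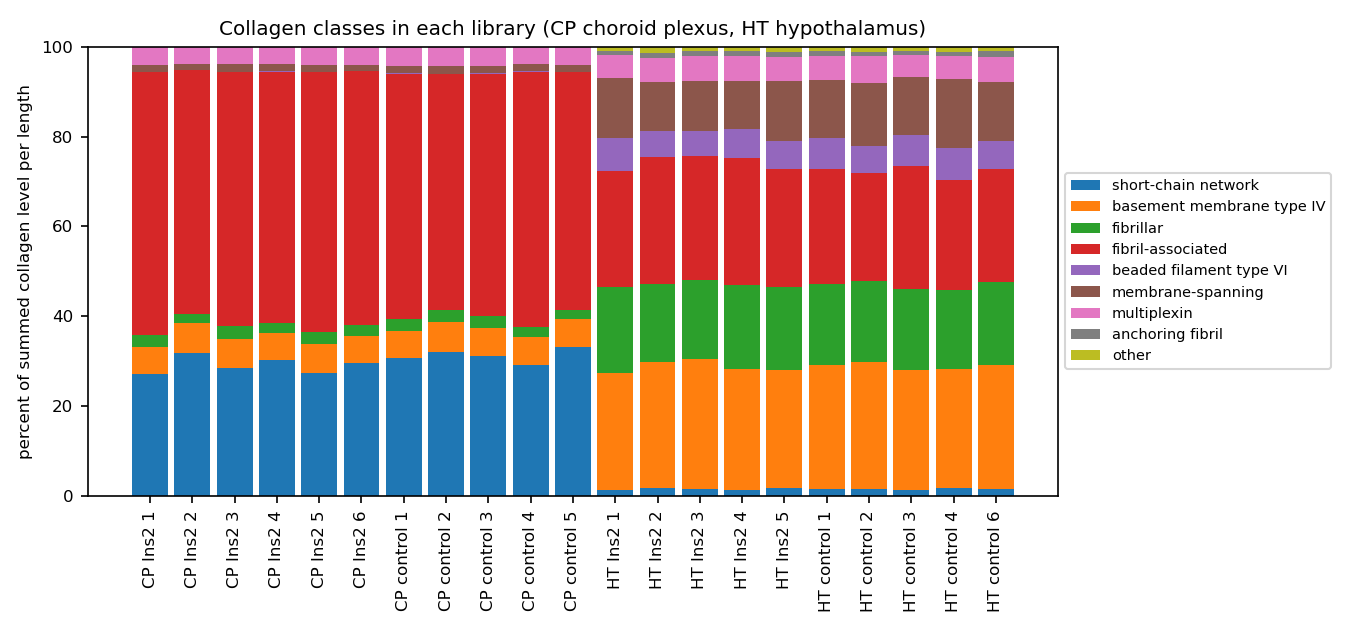
Share of each collagen class in the summed collagen level per exon length (percent, vertical axis) in each of the 21 libraries, choroid plexus first and hypothalamus after it, Ins2 before control in each. In every choroid plexus library the fibril-associated and short-chain classes fill most of the bar, and in every hypothalamus library type IV and fibril-associated chains are the largest classes.

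For some collagen types, though not for type VIII, the chains stood in different ratios in the 2 tissues. The summed level per length of Col4a3, Col4a4 and Col4a5 was 9.22 ± 2.42 times that of Col4a1 and Col4a2 in control choroid plexus and 0.0590 ± 0.0113 times in control hypothalamus (SD, n = 5 each). Col9a3 was 769 ± 502 times Col9a2 in choroid plexus, with a range over libraries of 367 to 1636, and 0.519 ± 0.0363 times in hypothalamus. The third type IX chain, Col9a1, had 4 reads over the 5 choroid plexus libraries and 221 over the 5 hypothalamus libraries. Col1a2 was 5.69 ± 2.95 times Col1a1 in choroid plexus and 1.01 ± 0.0722 times in hypothalamus. Type I collagen is known as a trimer with 2 chains from Col1a1 and 1 from Col1a2. The ratio of Col4a2 to Col4a1 was 1.205 ± 0.171 in choroid plexus and 2.16 ± 0.187 in hypothalamus, and that of Col8a2 to Col8a1 was 1.54 ± 0.0808 and 1.62 ± 0.347, which overlapped between the tissues. Lengths are exon unions of the annotation, so a ratio also depends on which isoforms are used.

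Across the libraries of a tissue, 5 of 19 pairs of chains varied together past the threshold, with Benjamini-Hochberg adjustment of permutation p-values over the 19 pairs. No share over other pairs of genes was computed, so this count does not set chains of one trimer apart from other genes. Col4a1 and Col4a2 had Pearson r = 0.96 in choroid plexus (11 libraries, permutation p = 3e-05, adjusted p = 0.00057, Spearman rho = 0.80, permutation p = 0.00446). Col1a1 and Col1a2 had r = 0.85 in choroid plexus (permutation p = 0.0027, adjusted p = 0.0164, rho = 0.83, permutation p = 0.00287) and r = 0.90 in hypothalamus (10 libraries, permutation p = 0.00035, adjusted p = 0.00333, rho = 0.87, permutation p = 0.00219). Col6a1 and Col6a2 had r = 0.80 in choroid plexus (permutation p = 0.00345, adjusted p = 0.0164, rho = 0.81, permutation p = 0.00399). Col4a5 and Col4a6 had r = 0.78 in hypothalamus (permutation p = 0.0092, adjusted p = 0.0350, rho = 0.81, permutation p = 0.0071). With each group centred on its own mean the r values were 0.97, 0.87, 0.97, 0.80 and 0.81 in the same order. Without the 2 libraries farthest from the median of the first gene they were 0.90, 0.77, 0.84, 0.78 and 0.65, and no pair passed the threshold on the libraries left (adjusted permutation p = 0.0571, 0.0664, 0.0664, 0.0664 and 0.177). Whether this loss comes from those libraries or from the smaller number and narrower range was not tested. By Spearman rho 7 pairs passed, the added ones being Col8a1 and Col8a2 in choroid plexus (rho = 0.72, adjusted permutation p = 0.0438) and Col6a1 and Col6a2 in hypothalamus (rho = 0.79, adjusted permutation p = 0.0277). With each group centred, r fell to 0.33 for the Col8a1 pair (adjusted permutation p = 0.402) and was 0.72 for the Col6a1 pair (adjusted permutation p = 0.0571). Without the 2 farthest libraries r was 0.45 and 0.60 (adjusted permutation p = 0.350 and 0.226). The short head-to-head pair Col4a3 and Col4a4 had r = 0.53 in choroid plexus (permutation p = 0.0963, adjusted p = 0.165) and r = -0.04 in hypothalamus (permutation p = 0.911, adjusted p = 0.958). Without the 2 farthest libraries r was 0.72 and -0.08 (adjusted permutation p = 0.105 and 0.896). With each group centred it was 0.52 and -0.58 (adjusted permutation p = 0.150 for each). In hypothalamus both genes were low, at 29 to 94 reads for Col4a3 and 35 to 112 for Col4a4, so counting error limits that r.

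The libraries that were low in Col4a1 were also low in vessel markers. Choroid plexus Ins2 library 4 had the lowest Col4a1, at 180 size-factor-scaled reads, and the lowest endothelium marker sum of that tissue, at 58.0 reads per M, with 36.1 for mural cells. Ins2 libraries 2 and 6 had 248 and 303 reads of Col4a1, and endothelium sums of 95.5 and 94.4 reads per M. Control library 5 had 260 reads of Col4a1 and an endothelium sum of 85.5, with 33.7 for mural cells, the lowest mural sum of the choroid plexus. These 4 libraries were the lowest of the tissue both in Col4a1 and in the endothelium sum. Over all libraries the endothelium sum was 58.0 to 159 reads per M in Ins2 choroid plexus and 85.5 to 140 in control choroid plexus, and the fibroblast sum was 83.1 to 147 and 96.8 to 161. In hypothalamus the highest Col1a1 and Col1a2 were in Ins2 library 1, at 537 and 1084 size-factor-scaled reads, which also had the highest fibroblast sum of the tissue, 188 reads per M. The part of these cells in the correlations was not tested.

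**Figure D3:**
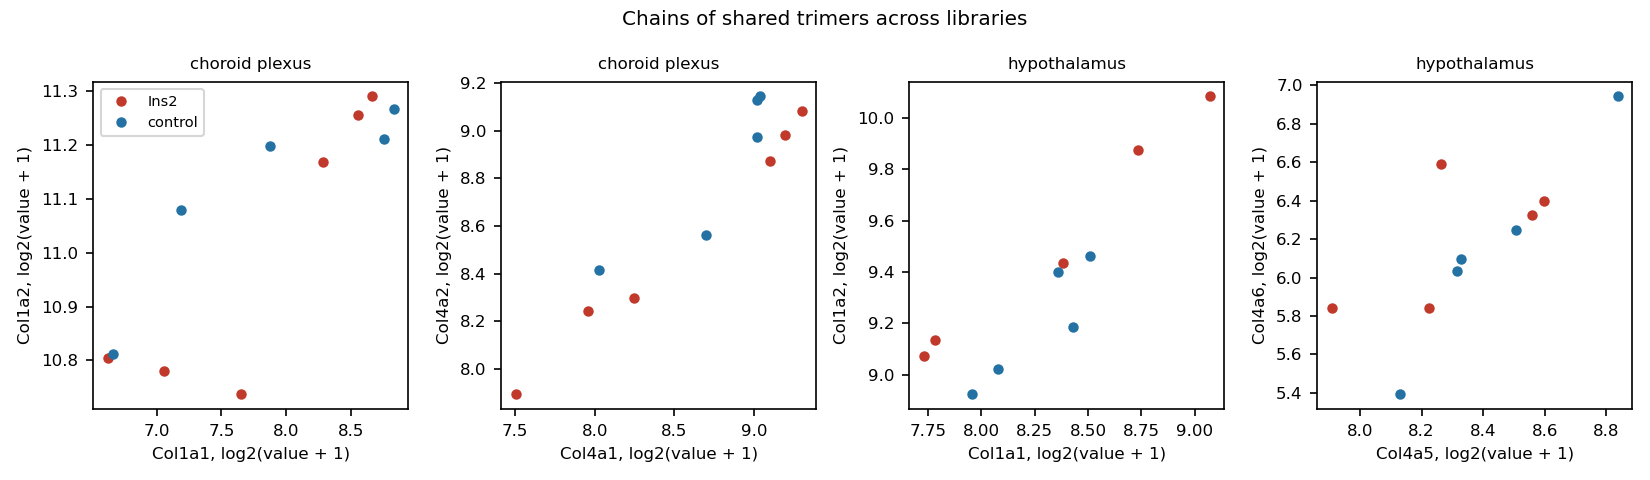
Levels of 2 chains of one trimer in each library, log2(size-factor-scaled reads + 1) on both axes, for Col1a1 and Col1a2 and for Col4a1 and Col4a2 in choroid plexus, and for Col1a1 and Col1a2 and for Col4a5 and Col4a6 in hypothalamus (Ins2 red, control blue). Points rise together with r = 0.85, 0.96, 0.90 and 0.78 from left to right, and the Ins2 and control libraries are intermixed.

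The main comparison of the study asked what Ins2 overexpression altered. In choroid plexus no collagen passed the test. Limma was fitted to log2(value + 1) for all 14533 genes with a mean of at least 10, with Benjamini-Hochberg adjustment over them and a threshold of 0.05. Of the 44 collagens 34 were tested and 0 called, where 0.0138% of all genes were called. EdgeR also called 0. DESeq2 gave an adjusted p to 12 of the 34 and called 1, Col8a2, where it called 0.347% of the 7203 genes given one. Without its independent filtering, an alternative chosen after seeing the data, all 34 had an adjusted p and the 1 called was again Col8a2, where 0.166% of genes were called. At an unadjusted p under 0.05 there were 4 collagens by limma, where 6.21% of all genes were at that level, 1 with a higher and 3 with a lower mean in Ins2 choroid plexus. There were 4 by edgeR, where 6.56% of genes were, and 5 by DESeq2, where 6.36% were. The 10 collagens below the mean were Col6a4, Col6a5, Col6a6, Col9a1, Col11a1, Col19a1, Col22a1, Col24a1, Col25a1 and Col28a1.

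Small differences below 0 were the more frequent. The log2 fold change was below 0 for 26 of the 34 collagens, against 51.6% of all genes, and its median was -0.11, against -0.0045 over all genes. These shares moved with single libraries. The median was -0.04 without Ins2 library 4 (21 of 34 below 0), -0.05 without Ins2 library 2 (24 of 35), -0.06 without Ins2 library 6 (27 of 34) and -0.07 without control 3 (23 of 34), and it was -0.17 without Ins2 library 3 (29 of 34) and -0.20 without control 5 (28 of 35). Without controls 2 and 5 together, an alternative chosen after seeing the data, it was -0.21 (28 of 35). Over the control libraries, the median deviation of the collagens from their control means varied with an SD of 0.17.

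Most marker lists of other cell types lay below 0 in the same comparison, and none of their genes was called by limma. The log2 fold change was below 0 for 6 of 6 astrocyte markers (median -0.61), 4 of 4 ependyma markers (-0.37), 5 of 6 endothelium markers (-0.17), 4 of 6 oligodendrocyte markers (-0.17), 5 of 7 fibroblast markers (-0.16), 5 of 6 mural markers (-0.08), 2 of 4 neuron markers (-0.04) and 5 of 8 plexus epithelium markers (-0.04). Macrophage markers lay the other way, with 2 of 6 below 0 (median 0.23). Summed marker levels overlapped between the groups, at 100.8 to 140 reads per M in Ins2 and 109 to 325 in control choroid plexus for astrocytes, 163 to 210.4 in Ins2 and 177 to 216 in control for ependyma, and 36.1 to 88.9 in Ins2 and 33.7 to 81.7 in control for mural cells. Oligodendrocyte sums were 64.8 to 178 reads per M in Ins2 (median 122) and 59.5 to 1684 in control choroid plexus (median 76.6). Median astrocyte sums were 121 in Ins2 and 129 in control. The highest control sums of both lists, 1684 and 325, were those of control library 2. Fold changes of the marker lists without that library were not taken. The part of all these cell types in the collagen differences was not tested.

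Col8a2 was the one collagen whose groups did not overlap, where 0.626% of all genes tested had no overlap. It had 14697 to 16911 size-factor-scaled reads in the Ins2 libraries (median 15304, n = 6), against 17393, 17092, 18371, 18575 and 18207 in the controls. Every Ins2 library lay below every control library. The fold was 0.867 (95% interval 0.806 to 0.933; exact permutation p = 0.00433; limma adjusted p = 0.414), and DESeq2 on the recovered reads gave an adjusted p of 0.0194, or 0.0316 without independent filtering, while over the other 20 alternatives it ran from 0.141 to 0.868. Its partner Col8a1 had 17353 to 20311 reads in the Ins2 libraries (median 18403), against 19310, 20817, 21388, 20616 and 19319 in the controls. The Col8a1 groups overlapped, with a fold of 0.922 (0.854 to 0.996; exact permutation p = 0.0498; limma adjusted p = 0.793). The short-chain class was 29.0% ± 1.78 of the collagen level per length in Ins2 and 31.2% ± 1.504 in control choroid plexus (SD, n = 6 and 5), and its ranges overlapped.

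Col10a1, the type X collagen of hypertrophic cartilage, had the largest fold among the tested collagens at a low level. It had 25.6 to 49.4 size-factor-scaled reads in the Ins2 libraries (median 39.9), against 5.15, 11.2, 10.9, 25.8 and 15.1 in the controls. All but 1 control, number 4, lay below every Ins2 library. The fold was 2.94 (1.71 to 5.08; exact permutation p = 0.00433; limma adjusted p = 0.405), and over the 20 alternatives that gave it an adjusted p this ran from 0.0714 to 0.824. DESeq2 with its filtering gave it none. Col10a1 (chromosome 10, 34389981 to 34397085) lies within the opposite-strand gene Nt5dc1 and shares 0.575% of its exon bases with it. Nt5dc1 had a mean of 1247 size-factor-scaled reads over the choroid plexus libraries, against 27.1 for Col10a1. The log2 fold change of Nt5dc1 was 0.04 (limma adjusted p = 0.956). Whether counting used strand is not given in the sources used here, so reads of these genes may be mixed.

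Col18a1 and Col6a3 were the others with the smallest p-values in choroid plexus. Col18a1 had 4698 to 5880 reads in the Ins2 libraries (median 5328), against 5784, 5911, 6390, 6013 and 5213 in the controls, a fold of 0.897 (0.814 to 0.988; exact permutation p = 0.0758; limma adjusted p = 0.766). Col6a3, a chain of the beaded filaments, had 4.202 to 22.9 reads in the Ins2 libraries (median 17.7), against 47.4, 48.2, 28.2, 39.6 and 7.56 in the controls. Only control 5 lay among the Col6a3 values of the Ins2 libraries, and the fold was 0.492 (0.237 to 1.02; exact permutation p = 0.108; limma adjusted p = 0.804). Col9a3, the most abundant collagen, had a fold of 1.004 with an interval of 0.895 to 1.13. The head-to-head chains Col4a3, Col4a4 and Col4a5 had folds of 0.974 (0.871 to 1.09), 0.961 (0.881 to 1.05) and 0.969 (0.872 to 1.078). At 95% confidence the fit leaves room for changes inside these intervals, which these data cannot separate from 0.

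**Figure D4:**
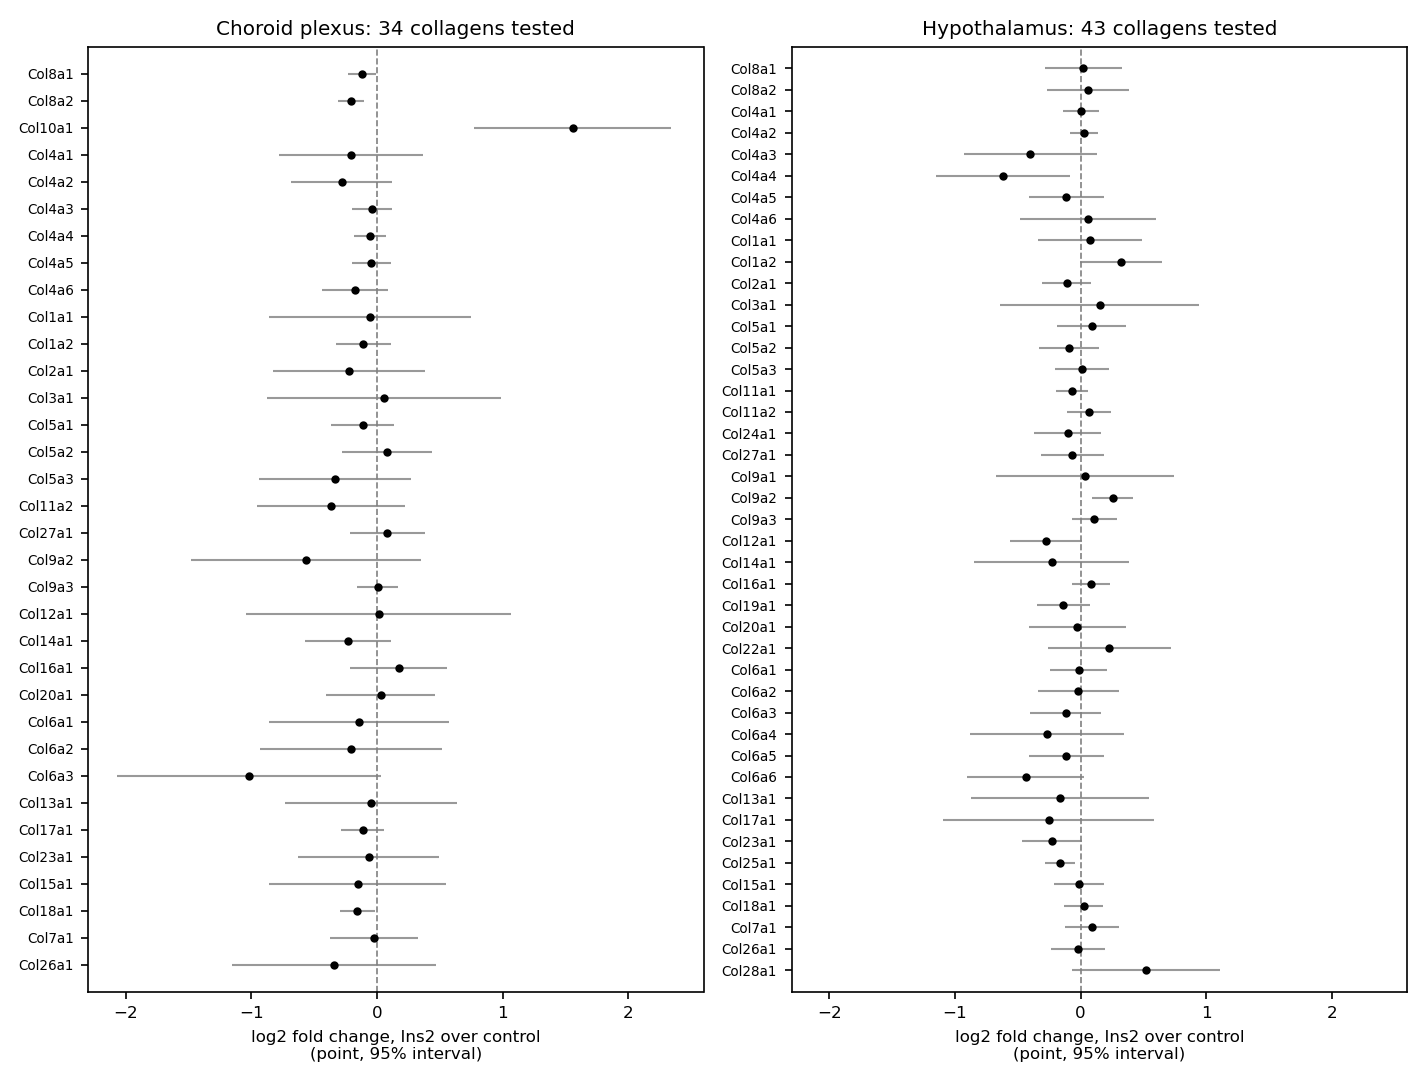
Log2 fold change of Ins2 over control with its 95% interval (horizontal axis) for the 34 collagens tested in choroid plexus (left) and the 43 tested in hypothalamus (right), from limma on log2(size-factor-scaled reads + 1). No collagen passed the adjusted threshold in either tissue; the widest departure is Col10a1 in choroid plexus, at 1.56.

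In hypothalamus 43 of the 44 collagens were tested, all but Col10a1, and 0 were called by limma or edgeR, where limma called 0% of the 16363 genes. DESeq2 gave an adjusted p to 7 of the 43 and called none of these, where it called 0.338% of the 6211 genes given one, and without independent filtering it called 0 of 43, where it called 0.0306% of genes. At an unadjusted p under 0.05 there were 3 collagens by limma, where 9.92% of all genes were at that level, 5 by edgeR, where 9.96% were, and 4 by DESeq2, where 10.4% were. The median log2 fold change of the collagens was -0.02, against 0.0011 over all genes, and 24 of 43 were below 0, against 49.7% of all genes. No collagen had groups without overlap, where 1.5% of all genes did.

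Col9a2 had the smallest p-value in hypothalamus. It had 1254, 1157, 1335, 1335 and 1200 size-factor-scaled reads in the Ins2 libraries, against 1069, 933, 1262, 939 and 1084 in the controls. Control 3 alone lay within the range of the Ins2 libraries, and the fold was 1.19 (95% interval 1.06 to 1.34; exact permutation p = 0.0317; limma adjusted p = 0.340). Col25a1 had 3854, 3087, 3242, 3437 and 3727 reads in the Ins2 libraries, against 4069, 3649, 3870, 3924 and 3901 in the controls. Its fold was 0.891 (0.820 to 0.968; exact permutation p = 0.0476; limma adjusted p = 0.374), and 3 of 5 Ins2 libraries lay below every control. Col4a4, at a low level in this tissue, had 39.0, 33.4, 64.0, 47.1 and 43.3 reads in the Ins2 libraries, against 83.5, 63.9, 69.5, 44.4 and 90.8 in the controls, a fold of 0.652 (0.451 to 0.944; exact permutation p = 0.0397; limma adjusted p = 0.443).

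Col1a2 and Col12a1, a fibril-associated collagen of tendon and other dense tissue, followed. Col1a2 had 1084, 538, 561, 691 and 939 reads in the Ins2 libraries, against 485, 580.5, 704, 519 and 675 in the controls, and its groups overlapped (log2 fold change 0.32 ± 0.16, SE; limma adjusted p = 0.507). The 2 Ins2 libraries above the controls, 1 and 5, had the highest fibroblast marker sums of the hypothalamus, 188 and 162 reads per M, where the other hypothalamus libraries had 108 to 133. The part of these cells in the Col1a2 difference was not tested. Col12a1 had 272, 228, 240, 215 and 195 reads in the Ins2 libraries, against 271, 290, 369, 240 and 232 in the controls (log2 fold change -0.27 ± 0.14, SE; limma adjusted p = 0.521).

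**Figure D5:**
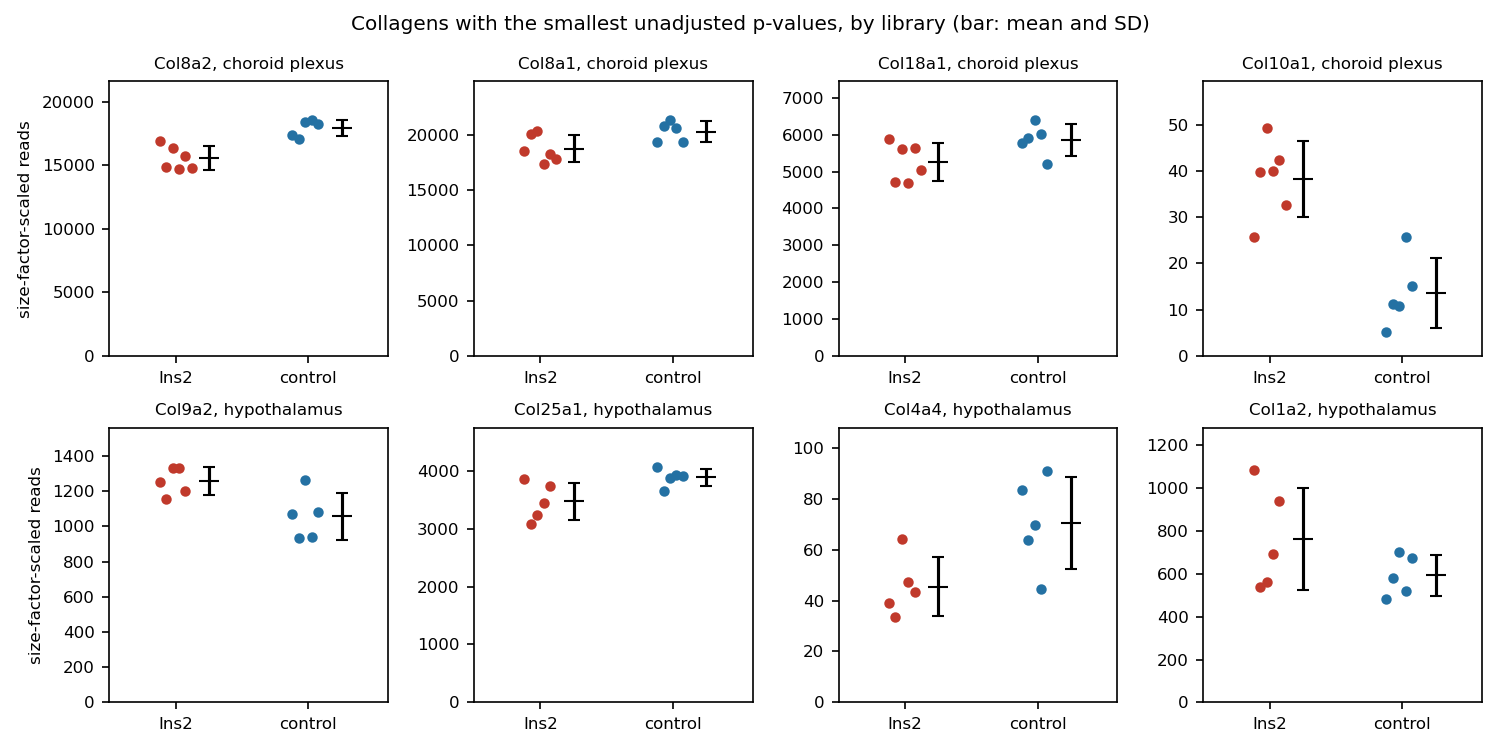
Size-factor-scaled reads per library (vertical axes from 0) for 4 collagens in choroid plexus and 4 in hypothalamus with the smallest unadjusted p-values, Ins2 left of control, with the mean and SD beside the points (choroid plexus 6 and 5 libraries, hypothalamus 5 and 5). The groups separate only for Col8a2, at 14697 to 16911 in Ins2 and 17092 to 18575 in control choroid plexus.

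The difference between the tissues was tested as choroid plexus minus hypothalamus log2 fold change. Of 33 collagens tested in both, 0 were called by this limma-based test, where 0.107% of all 13997 genes were called, and 2 had an unadjusted p under 0.05, where 10.6% of all genes did. The difference was below 0 for 22 of the 33, where it was for 50.9% of all genes, and its median over the 33 was -0.13, against -0.0040 over all genes. These values moved with single libraries. The median was -0.013 without choroid plexus Ins2 library 4 and -0.010 without choroid plexus control 1 (18 of 33 below 0 in each). It was -0.23 without choroid plexus control 5 (23 of 34). For Col4a4 the difference was 0.56 (-0.06 in choroid plexus, -0.62 in hypothalamus; adjusted p = 0.460), and for Col1a2 it was -0.43 (-0.11 and 0.32; adjusted p = 0.417). Both tissues may come from the same animals, which this test does not take into account.

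Genes that make, process, bind and cut collagens were set beside the collagens in 5 lists. None of their members passed the adjusted limma threshold in either tissue. At an unadjusted limma p under 0.05 were 6.21% of all genes tested in choroid plexus and 9.92% in hypothalamus. The counts of each list below stand beside these shares. Of the folding and modification list, 17 of 18 were tested in choroid plexus with 2 at an unadjusted p under 0.05 (both lower), and 18 of 18 in hypothalamus with 1 (lower). Its most abundant members per length in control choroid plexus were P4hb, the shared subunit of prolyl 4-hydroxylase, at 103 ± 4.74 reads per kb per M, and the collagen chaperone Serpinh1, at 71.1 ± 5.96, and in control hypothalamus P4hb, at 61.7 ± 1.77, and the export factor Mia3, at 29.0 ± 0.743. Of the propeptide removal and crosslinking list, 12 of 14 were tested in choroid plexus with 2 at that level (both lower), and 13 of 14 in hypothalamus with 2 (both higher). Its leading members were Pcolce and Pcolce2, enhancers of the procollagen C-proteinase, at 88.7 ± 5.22 and 41.9 ± 1.63 in control choroid plexus, and the peroxidase Pxdn, which crosslinks type IV collagen, and the proteinase Bmp1, at 4.88 ± 0.380 and 4.65 ± 0.439 in control hypothalamus.

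Of 11 collagen receptors 10 were tested in each tissue, with 2 at an unadjusted p under 0.05 in choroid plexus (both lower) and 0 in hypothalamus. The tyrosine kinase receptor Ddr1 and the integrin chain Itgb1 led in control choroid plexus, at 87.9 ± 4.801 and 46.5 ± 2.24 reads per kb per M, and Adgrg1, an adhesion receptor that binds type III collagen, and Ddr1 led in control hypothalamus, at 46.0 ± 3.40 and 25.3 ± 2.33. Of 16 basement membrane partners 15 were tested in choroid plexus with 3 at that level (all lower) and 16 in hypothalamus with 0. Over all genes, 6.21% were at that level in choroid plexus and 9.92% in hypothalamus. Sparc, a collagen-binding matrix protein, led in both tissues, at 118 ± 8.81 in control choroid plexus and 531 ± 21.1 in control hypothalamus, followed by the nidogen Nid2 in choroid plexus, at 51.8 ± 1.07, and by Agrn in hypothalamus, at 26.4 ± 2.05. Of 12 matrix proteases and inhibitors 9 were tested in choroid plexus with 2 at that level (1 higher, 1 lower) and 11 in hypothalamus with 1 (higher). The inhibitors Timp2 and Timp3 led in both tissues, at 241 ± 6.31 and 110 ± 7.26 in control choroid plexus and 218 ± 7.32 and 23.8 ± 1.33 in control hypothalamus. The median log2 fold change of the 5 lists lay between -0.11 and -0.02 in choroid plexus and between -0.01 and 0.09 in hypothalamus, where those of all genes were -0.0045 and 0.0011.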

How the data were processed

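RNA was isolated with PicoPure kits and poly(A) RNA was made into dUTP libraries, per the labels' protocols. HISAT2, featureCounts, DESeq2 and the build GRCm38 (mm10) are named in the submitters' processing notes, without versions or the strand setting of the counting. Values in the deposited tables, here called signal or size-factor-scaled reads, are counts per gene after division by DESeq2 size factors, with 1 table for each tissue, per the labels. Every value column was mapped to a sample.

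Dividing each library by its smallest step gave whole reads for 100% of values, within 0.02. For control choroid plexus library 4 the step lies so close to 1 that a generic check of the recovery, which skips such steps, could not accept it. Its reads were recovered in the same way, and the whole column gave 100% within the same tolerance. Reads per kb use the exon union of GENCODE for the same build.

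Within each tissue limma 3.58.1 (R 4.3.3), with a mean-variance trend, was fitted to log2(value + 1) for all genes with a mean of at least 10, with Benjamini-Hochberg adjustment and a threshold of 0.05. Fold changes on this scale understate those of low genes. Exact permutation tests were two-sided and enumerated every regrouping, 462 in choroid plexus and 252 in hypothalamus, whose smallest p-values are 0.00216 and 0.00794. Differences between tissues used both moderated errors with Welch-Satterthwaite degrees of freedom, and correlations used 100000 permutations. Scripts were tested on simulated data. Alternatives were edgeR 4.0.16 and DESeq2 1.42.0 on recovered reads, pseudocounts of 0.5 and 5, other filters, equal totals, array weights, a replicate block and each library left out. DESeq2 gave no adjusted p to genes its independent filtering removed, and these were left without one. The collagens, their classes and the other lists were chosen with earlier results of these data known. Genes named were the 8 highest per length and the 5 smallest p-values in each tissue, the 3 largest and 3 smallest ratios between tissues, and the 2 highest of each list of partner genes. Others were named after their values were seen.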

Additional observations from a re-analysis of the deposited data

Results flagged for a closer look

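Samples far from the others of their group were looked for by Dixon's 95% criterion in 21 named collagens, 84 groups in all. It marked 4 groups, or 4.76%, where chance marks about 1 in 20 groups. In 3 the highest library stood apart. Col11a2 was at 89.99 size-factor-scaled reads in choroid plexus Ins2 library 3, where the other Ins2 libraries had 50.1 to 60.3, and at 175 in control choroid plexus library 2, where the other controls had 44.3 to 76.2. That control library is the one with 1684 oligodendrocyte marker reads per M, and its share in the Col11a2 value was not tested. Col19a1 was at 522 in hypothalamus Ins2 library 1, where the other Ins2 libraries had 387 to 416. In the last, Col4a5 was lowest, at 2932 in control choroid plexus library 1, where the other controls had 3593 to 3847.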

How the results depend on the processing

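The count of 0 collagens called in choroid plexus became 1 with DESeq2 (Col8a2), with or without independent filtering, and stayed 0 under every other alternative run. In hypothalamus and in the difference between tissues it was 0 under every alternative run. The difference was not run with edgeR, DESeq2 or array weights, nor with libraries left out together. The median log2 fold change in choroid plexus kept its sign, at -0.21 to -0.04. Leaving out single libraries moved it from -0.20 to -0.04, and moved that of hypothalamus from -0.077 (without Ins2 library 1) to 0.0016 (without control 3), where it was -0.02 on all libraries. The 5 chain pairs past the threshold became 0 without the 2 libraries farthest from the median, on fewer libraries, were 7 by rank correlation and 5 with group means removed. The 5 collagens with the smallest p-values in each tissue kept their direction under each alternative run. Of the 8 highest per length, others near 0 did not: in choroid plexus Col9a3 changed sign in 6 of 22 alternatives and Col4a5 in 1, and in hypothalamus Col4a1 in 10 of 21, Col4a2 in 2 and Col11a2 in 1. Deviations of same-numbered libraries had correlations of -0.15 to 0.14 in choroid plexus and -0.07 to 0.01 in hypothalamus. This check cannot exclude that samples were paired. For hypothalamus Ins2 libraries 4 and 5 and control 6, the replicate number differs from the number in the title's bracketed code. Pairing by those codes was not tried. With the numbers as a block, which drops choroid plexus Ins2 library 6, hypothalamus Ins2 library 5 and hypothalamus control 6, no collagen was called, the medians were -0.06 and -0.04, and 57 of all hypothalamus genes were called, against 0 without the block on all libraries and 0 on the same libraries. Without hypothalamus control 6, 18 of all genes were called there, and without control 4, 1. With equal totals the difference between tissues was called for 4 of all genes in place of 15. Array weights called 6 of all choroid plexus genes, DESeq2 25 (24 without independent filtering) and limma 2, and DESeq2 called 21 of all hypothalamus genes (5 without it). DESeq2 without that filtering and the fit on the same libraries were chosen after seeing the data. With no filter on low values the 10 low collagens of choroid plexus were also tested and none was called, at few reads each.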

Other observations

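Among the partner genes, those with the smallest unadjusted p-values were picked after their values were seen, and none passed the adjusted limma threshold. Itga1, a chain of a collagen-binding integrin, had 216 ± 26.9 size-factor-scaled reads in Ins2 choroid plexus and 299 ± 27.4 in control choroid plexus (SD, n = 6 and 5; limma adjusted p = 0.414). Its ranges of 163 to 238 and 275 to 332 did not overlap, where 0.626% of all genes tested in choroid plexus had no overlap. Mmp2, a gelatinase that cuts denatured and type IV collagen, had 1483 ± 118 in Ins2 and 1286 ± 94.0 in control choroid plexus (limma adjusted p = 0.614), and the ranges overlapped. Adamts2, which removes the N-terminal propeptide of fibrillar collagens, had 1541 ± 121 in Ins2 and 1272 ± 156 in control hypothalamus (SD, n = 5 each; limma adjusted p = 0.317), and the ranges overlapped.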
